A study of Mus musculus with 2 samples.

Results

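The transcripts described here are those of the eukaryotic translation initiation factors in mouse liver. The members are all gene symbols of the deposited TPM table that start with Eif and a number, without Eif2s3x, Eif2s3y and the names of pseudogenes. There were 53 such genes among 24054 listed genes. Both groups were livers of male C57BL/6 mice of 8-12 weeks of age. WT mice carried an intact Pgrmc1 gene, and Pgrmc1 KO mice (Pgrmc1 -/Y) lacked it in the whole body after a conditional allele, made on the C57BL/6N substrain, was crossed to Sox2-Cre mice. Pgrmc1 lies on the X chromosome and encodes a heme-binding membrane protein. Liver RNA of several mice of the same genotype was pooled at 2.5 µg per mouse, and 1 library was sequenced from each pool. There is therefore no measure of the spread between mice and no test of a difference between genotypes. An effect of the KO and a chance difference between the mice of the pools cannot be told apart. The libraries held 22086700 estimated reads in KO and 29710400 in WT. Pgrmc1 was at 0.68 TPM in KO against 949 TPM in WT, which follows the labels.

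TPM is the level of a gene's transcripts corrected for their length and for the size of the library, so it can be compared between genes. Changes are given as log2 of KO over WT with 1 TPM added to both, so that a negative value is a lower level in KO. This scale understates the change of low genes. The second deposited table holds the reads of each gene divided by a library size factor, called the authors' means here, although each came from 1 library. From it the number of reads behind each gene was estimated, and with it a 95% Clopper-Pearson interval of the log2 ratio. These intervals cover counting error only and say nothing about differences between mice.

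Initiation is the step at which the small ribosomal subunit, with the initiator tRNA, is brought to an mRNA and placed on a start codon. The factors eIF1, eIF1A, eIF2, eIF3 and eIF5 act on the small subunit. The eIF4 factors bind the cap and unwind the mRNA leader, and eIF5B joins the large subunit. Liver makes large amounts of secreted protein, and initiation is a known point at which its protein synthesis is controlled. Kinases that phosphorylate eIF2 alpha reduce the supply of initiator tRNA under stress. The 4E-binding proteins hold back the cap-binding protein eIF4E when the mTORC1 kinase is off.

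Many mRNAs of the translation machinery begin with a run of C and T bases, the terminal oligopyrimidine tract, through which mTORC1 controls their use. RefSeq promoter entries on GRCm38.p6 were found for 41 of the 53 genes, with 54 annotated starts. Of these starts, 20.4% had a run of at least 8 C or T bases on the gene's strand within 20 bases of the start, against 21.0% of the 32851 starts of all genes. The share among the initiation factors was close to that of all genes. Runs before or after the start also counted, so it does not tell how many of these mRNAs begin with such a tract. The windows of 4 genes with such a run are shown because the runs differ in length and in place, and because Eif2b5 and Eif3m return below among the higher and the lower genes. Each window is 60 bases on the gene's own strand with the annotated start at base 31, and runs of at least 8 C or T bases are in capitals.
Eif3f, chr7:108934385-108934444, plus strand: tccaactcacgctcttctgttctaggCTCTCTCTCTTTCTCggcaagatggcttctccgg
Eif3l, chr15:79075193-79075252, plus strand: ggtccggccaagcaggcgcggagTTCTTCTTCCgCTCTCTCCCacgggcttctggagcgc
Eif3m, chr2:105016998-105017057, minus strand: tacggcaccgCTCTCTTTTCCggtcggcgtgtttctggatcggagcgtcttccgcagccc
Eif2b5, chr16:20498787-20498846, plus strand: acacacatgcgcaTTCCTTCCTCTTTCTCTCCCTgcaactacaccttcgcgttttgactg

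In Eif3f, Eif3l and Eif2b5 a run spanned the annotated start, while in Eif3m it ended before the start. The run of Eif2b5 was the longest of the 4 windows, with 21 bases. A run is a feature of the letters only, and RNA-seq levels do not measure how an mRNA is translated.

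Transcripts of nearly all initiation factors were present in liver, over a wide range of levels. Of the 53 genes, 51 had a mean of at least 1 TPM over the libraries. The exceptions were Eif4e1b, an eIF4E relative of the oocyte, with 0.30 TPM in KO against 0.23 TPM in WT, and Eif5a2, the second eIF5A gene, with 0.28 TPM in KO against 0.23 TPM in WT. Both were too low for a comparison. Eif3j1 and Eif3j2 are copies that are near-identical over the stretch they share, and were summed, which left 50 values. These ran from 2.57 TPM to 227 TPM in KO, with a median of 42.8 TPM, and from 2.79 TPM to 218 TPM in WT, with a median of 46.2 TPM. Together the 53 genes made up 2814 TPM in KO against 2908 TPM in WT, or 0.280% and 0.292% of all TPM.

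The same 5 genes led in both libraries, with 32.0% of the summed TPM in KO and 31.7% in WT. Eif5a, which helps ribosomes through difficult peptide bonds, was the highest, with 227 TPM in KO against 218 TPM in WT. Eif4a1, the main RNA helicase of the cap complex, followed with 204 TPM in KO against 217 TPM in WT. Eif1, which guards start codon choice, had 162 TPM in KO against 164 TPM in WT. Eif4a2, a close relative of Eif4a1, had 155 TPM in KO against 164 TPM in WT. Eif4g1, the scaffold that ties the cap complex to the ribosome, had 155 TPM in KO against 159 TPM in WT. None of these 5 genes differed by as much as 1.2-fold.

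**Figure D1:**
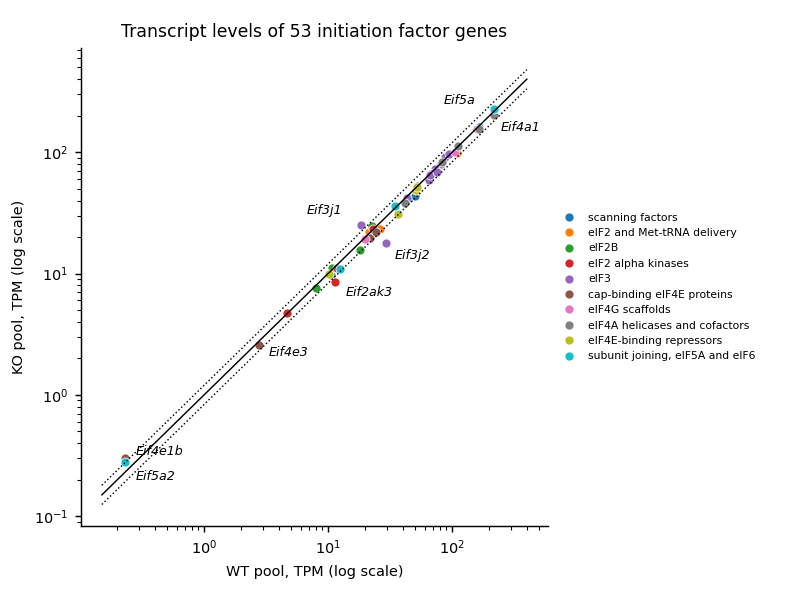
TPM of the 53 genes in the WT pool (x axis) and the KO pool (y axis), both on log scales, 1 point per gene coloured by role. The solid line marks equal levels and the dotted lines 1.2-fold. Most points lie between the dotted lines. Eif3j1 (25.2 TPM in KO, 18.4 TPM in WT) and Eif3j2 (18.0 TPM in KO, 29.3 TPM in WT) lie on opposite sides of the line, and Eif2ak3 lies below it.

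None of the 50 values was higher in KO by 1.2-fold or more, while 5.39% of all 11623 genes that averaged 1 TPM or more were. One value, that of Eif2ak3, was lower by 1.2-fold or more, which is 2% of the values against 5.51% of all genes. At 1.4-fold there was none in either direction, against 1.21% of all genes higher and 1.02% lower. The values ran from -0.37 for Eif2ak3 to 0.12 for Eif2b5 on the log2 scale. All genes were not matched to the members by level, and 46 of the 50 values averaged 10 TPM or more. The 5th and 95th percentiles of all genes were -0.27 and 0.27 from 1 TPM, and -0.25 and 0.20 from 10 TPM.

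Small differences leaned to lower levels in KO. The change was below 0 in 37 of the 50 values, or 74%, against 53.8% of all genes. The median was -0.063 on the log2 scale, against -0.013 for all genes, and 35 of the 50 values lay below that median of all genes. In the authors' means 34 of the 50 were below 0, with a median of -0.049 against -0.0033 for all genes. Of the TPM values that averaged 10 TPM or more, 34 of 46 were below 0, against 3604 of 6235 genes of that level. Their medians were -0.058 and -0.022. Among genes that averaged 10 TPM or more, the 5th and 95th percentiles of the change were -0.25 and 0.20, and 1 of the 46 initiation factors of that level lay outside them, Eif4ebp3 at -0.25. Eif2ak3, with the lowest change, averaged 9.95 TPM and so is not among the 46. The lean is a description of this pair of libraries, since members of 1 pathway in 1 library are not independent of each other.

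Counting error was of the size of most of these differences. The reads behind each value numbered 84 to 11401 in the library with fewer and 122 to 15683 in the other. The counting interval reached 0.12 on the log2 scale to either side, as the median over the values. Of the 46 values of at least 10 TPM, the interval lay below 0 for 14, or 30.4%, against 18.8% of the 6184 genes of that level. It lay above 0 for 2, Eif2b5 and Eif5a, or 4.35%, against 14.5%. The number of reads was not matched between members and other genes in this count.

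**Figure D2:**
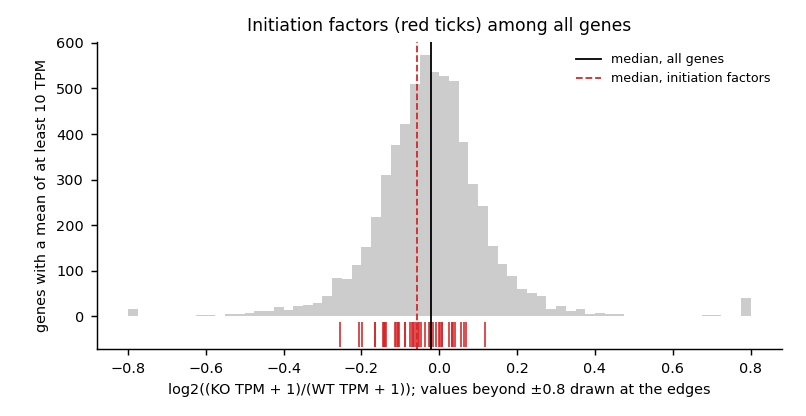
Changes of all genes that averaged 10 TPM or more (grey bars, number of genes per bin of the log2 change) and of the 46 initiation factor values of that level (red ticks). The black line marks the median of all these genes, -0.022, and the dashed red line that of the initiation factors, -0.058. The red ticks lie within the main peak of the bars. Eif2ak3, at a mean of 9.95 TPM, is not among them.

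The scanning factors eIF1 and eIF1A open the small subunit for scanning and hold it until a start codon is found. All 5 genes of the group (Eif1, Eif1b, Eif1a, Eif1ax and Eif1ad) were below 0, with a median change of -0.076, although Eif1 was at 0.0025 in the authors' means. Eif1ad was not counted as a core initiation factor, and without it the group median was -0.068. Eif1ax, the X-linked eIF1A gene, had 43.3 TPM in KO against 49.9 TPM in WT, a change of -0.20 with a counting interval of the ratio of -0.35 to -0.011. Eif1 was at the other end of the group with a change of -0.016. The autosomal Eif1a stood at 0.978 times Eif1ax in KO and at 0.896 times in WT, so the pair was present at like levels in both.

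eIF2 brings the initiator methionine tRNA to the small subunit, and eIF5 triggers its GTP hydrolysis. In this group (Eif2s1, Eif2s2, Eif2a, Eif2d and Eif5) 4 of 5 genes were below 0, with a median change of -0.11 and a summed level of 215 TPM in KO against 233 TPM in WT. Eif2a, an alternative carrier of initiator tRNA that is not a subunit of eIF2, had 23.1 TPM in KO against 26.0 TPM in WT, a change of -0.17 with an interval of -0.30 to -0.020. Eif5 had 99.5 TPM in KO against 110 TPM in WT, a change of -0.14 with an interval of -0.18 to -0.082. Eif2d, which also delivers tRNA and acts in recycling, was the gene above 0, at 22.0 TPM in KO against 21.4 TPM in WT. Eif2s2 (eIF2 beta) exceeded Eif2s1 (eIF2 alpha) by 2.22-fold in KO and 2.21-fold in WT.

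eIF2B recharges eIF2 with GTP and is the complex that phosphorylated eIF2 alpha blocks. Its 5 subunit genes went in both directions, 3 below 0 and 2 above, with a median of -0.079. Eif2b1, the alpha subunit of the regulatory core, had 15.6 TPM in KO against 18.2 TPM in WT, a change of -0.21 with an interval of -0.39 to -0.018. Eif2b5, the catalytic subunit, had 24.6 TPM in KO against 22.6 TPM in WT, a change of 0.12 with an interval of 0.0011 to 0.27. Eif2b5 had the highest change of the 50 values, and its interval only just left out 0.

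The eIF2 alpha kinases include the value past 1.2-fold. Eif2ak3 (chr6:70844484-70905241, GRCm38.p6) encodes PERK, the kinase that senses unfolded protein in the endoplasmic reticulum. It had 8.54 TPM in KO against 11.4 TPM in WT, which is 0.772 times the WT level with 1 TPM added, a log2 change of -0.37. In the authors' means the ratio was -0.40 with an interval of -0.56 to -0.25, from 520 estimated reads in KO. The other kinases were closer to 0. Eif2ak1, the heme-regulated kinase HRI, had 23.4 TPM in KO against 22.9 TPM in WT, a change of 0.025 with an interval of the ratio of -0.096 to 0.17. HRI is held inactive by heme, and it was the most abundant transcript of the 4 kinases in both libraries. Eif2ak2 (PKR, the sensor of double-stranded RNA) had 11.2 TPM in KO against 11.8 TPM in WT. Eif2ak4 (GCN2, the sensor of uncharged tRNA) had 4.70 TPM in KO against 4.69 TPM in WT.

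eIF3 is the largest initiation factor, a scaffold of many subunits on the small ribosomal subunit. Without the Eif3j copies its 12 genes lay close together in level, from 41.7 TPM to 96.2 TPM in KO and from 43.1 TPM to 93.5 TPM in WT, a range of 2.31-fold in KO and 2.17-fold in WT. Their changes ran from -0.14 to 0.063 with a median of -0.022. Eif3h, a subunit of the outer module, had the highest change of these genes, 0.063, with 91.4 TPM in KO against 87.4 TPM in WT. Eif3a, the large scaffold subunit, had 59.3 TPM in KO against 65.4 TPM in WT, a change of -0.14 with an interval of -0.19 to -0.073. Eif3m had 68.6 TPM in KO against 75.6 TPM in WT, a change of -0.14 with an interval of -0.24 to -0.0048. Eif3f, with the pyrimidine run at its start, had a change of 0.034, and Eif3l one of -0.020.

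The loosely bound subunit eIF3j is encoded by copies that share a long stretch of near-identical sequence. Eif3j1 (Entrez 78655, chr2:122028580-122053632) has 8 exons. Eif3j2 (Entrez 100042807, chromosome 18) has 1 exon. Their longest annotated transcripts, of 5413 and 2379 bases, differed at 4 of 2369 aligned bases, which is 99.8% identity, with 10 further gap bases. Of the windows of 100 bases in the transcripts of Eif3j2, 84.0% also occur in Eif3j1. In the other direction, 33.4% of the windows of Eif3j1 occur in Eif3j2. No other member shared over 10% of its windows with another gene whose annotated symbol is listed.

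The tables assigned the reads of the copies in different ways. In TPM, Eif3j1 was higher in KO, with 25.2 TPM in KO against 18.4 TPM in WT, a change of 0.43. Eif3j2 was lower in KO, with 18.0 TPM in KO against 29.3 TPM in WT, a change of -0.68. In the authors' means the directions were opposite. Eif3j1 stood at 0.081 in KO, which rounds to 0 reads, and at 482 in WT. Since the split of reads between the copies differs by table, these values give no bound on the change of Eif3j1. Eif3j2 stood at 1584 in KO and 1252 in WT, a ratio of 0.34 on the log2 scale. Eif3j1 thus took 58.3% of the pair's TPM in KO and 38.5% in WT, but 0.00514% of the pair's authors' means in KO and 27.8% in WT.

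A sum of reads over the copies does not depend on this split. A sum of TPM can depend on it, since TPM corrects for transcript length and the copies differ in length. The sum of the copies was 43.2 TPM in KO against 47.7 TPM in WT, a change of -0.14. In the authors' means it was 1584 in KO and 1734 in WT, a ratio of -0.13 with an interval of -0.23 to -0.030, from 1363 reads in KO and 2015 in WT. To compare the tables, 0.1 was added to the TPM and 1 to the values of the second table. On that scale these 2 genes were the members whose changes differed by over 0.2 between the tables, and with the copies summed no member differed by more than 0.041.

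**Figure D3:**
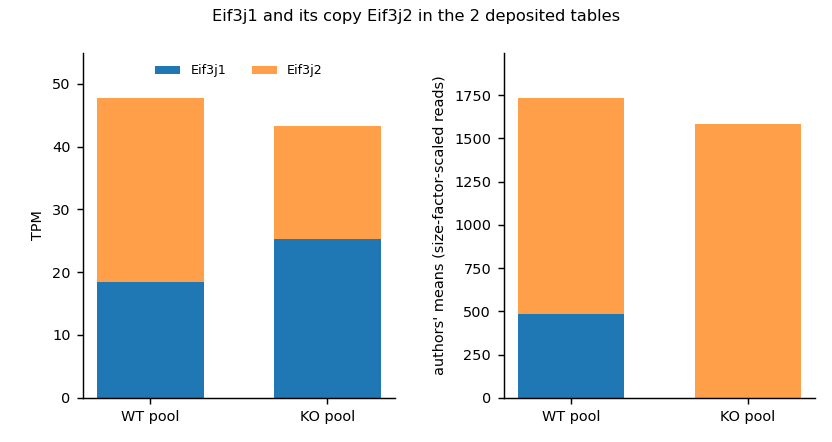
Levels of Eif3j1 (blue) and Eif3j2 (orange) stacked for the WT and KO pools, as TPM on the left and as authors' means, which are reads divided by a library size factor, on the right. The stacks reach 47.7 and 43.2 TPM and 1734 and 1584 units. The blue part is the larger one in KO on the left and is absent from the KO bar on the right.

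The cap-binding proteins begin cap-dependent initiation. Eif4e, Eif4e2 and Eif4e3 were all below 0, with a median change of -0.14, the lowest of the role groups. Eif4e, the cap-binding subunit of the complex, had 19.6 TPM in KO against 21.7 TPM in WT, a change of -0.14 with an interval of -0.27 to -0.0013. Eif4e2 (4EHP), a relative that represses translation, had 21.9 TPM in KO against 24.3 TPM in WT, and its interval of -0.26 to 0.0087 included 0. Eif4e3 was near the lower end of the family at 2.57 TPM in KO against 2.79 TPM in WT.

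The scaffold genes Eif4g1, Eif4g2 and Eif4g3 were below 0 by small amounts, with changes between -0.066 and -0.027. Eif4g2, which encodes the shortened form DAP5 that lacks the eIF4E site, had 100.1 TPM in KO against 105 TPM in WT, with an interval of -0.092 to -0.020 from 10695 reads in KO. Eif4g3 had 19.3 TPM in KO against 19.7 TPM in WT. Transcripts of Eif4g1 were present at 7.91 times those of Eif4e in KO and 7.32 times in WT.

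The helicase genes had small changes of like size. Eif4a1 and Eif4a2 changed by -0.088 and -0.089, and their ratio was 1.32 in both libraries. Eif4a3, the helicase of the exon junction complex, had 38.2 TPM in KO against 41.3 TPM in WT, a change of -0.11 with an interval of -0.24 to 0.042. The cofactor genes Eif4b and Eif4h differed less, with changes of -0.0010 and 0.0062. Of the 100-base windows of Eif4a1, 22.6% also occur in genes whose annotated symbols are not in the deposited table.

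The 4E-binding repressors were abundant next to their target. Transcripts of Eif4ebp1, Eif4ebp2 and Eif4ebp3 together stood at 6.74 times those of Eif4e in KO and 6.44 times in WT. Eif4ebp3 had 30.8 TPM in KO against 36.9 TPM in WT, a change of -0.25 with an interval of -0.42 to -0.066, the second lowest of the 50 values. Of its 100-base windows, 62.8% also occur in genes whose annotated symbols are not in the deposited table, so the assignment of its reads is uncertain. Eif4ebp2 had 52.0 TPM in KO against 51.7 TPM in WT. Eif4ebp1, the form best known in mTORC1 signalling, had 49.1 TPM in KO against 51.0 TPM in WT, a change of -0.056 with an interval of -0.20 to 0.12. Eif4enif1, which carries eIF4E into the nucleus, had a change of -0.021.

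In the last group 2 of 3 genes were above 0. Eif5a had a change of 0.057 with an interval of the ratio of 0.021 to 0.15. Eif6, which keeps the large subunit from joining too early, had 36.2 TPM in KO against 34.5 TPM in WT, a change of 0.067 with an interval of -0.062 to 0.23. Eif5b, the GTPase that joins the subunits, had 11.0 TPM in KO against 12.5 TPM in WT, a change of -0.17 with an interval of -0.28 to -0.064.

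**Figure D4:**
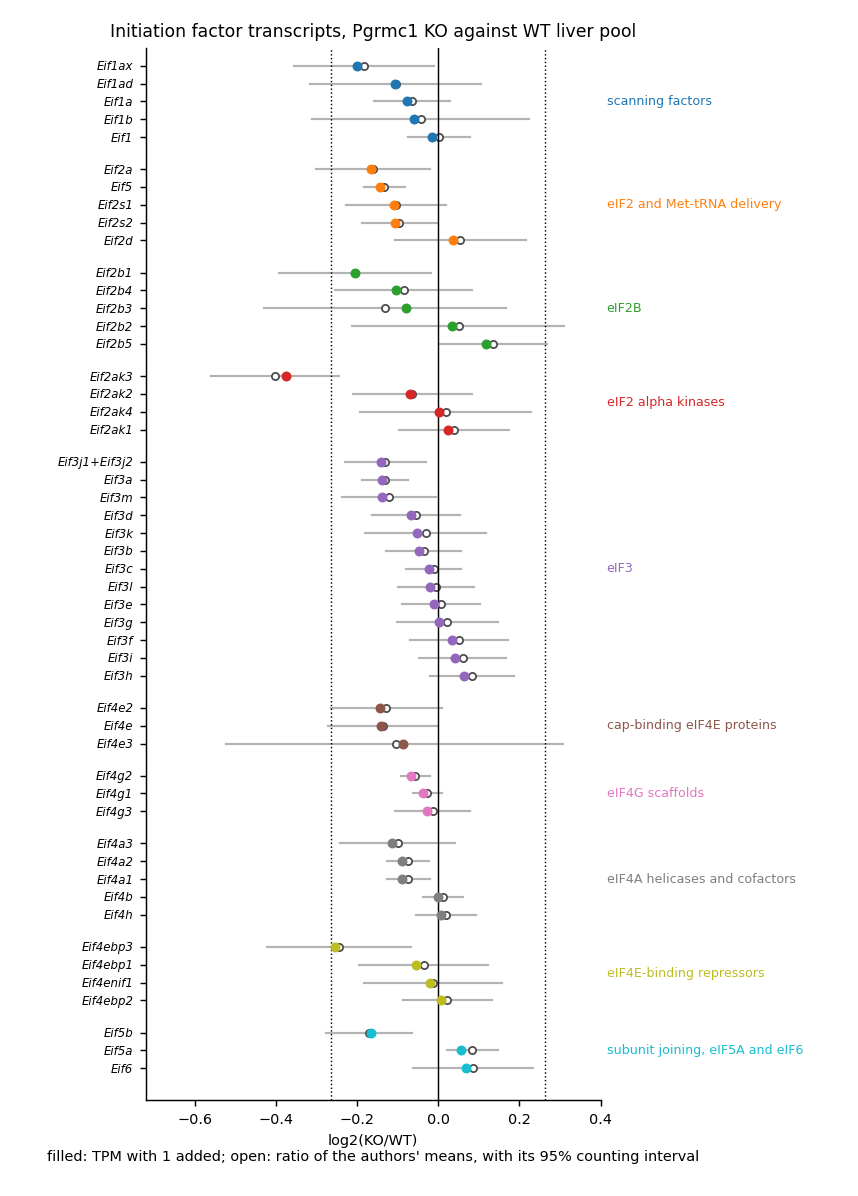
Change of each of the 50 values by role group, on a log2 scale of KO over WT. Filled points are TPM with 1 added, open points the ratio of the authors' means, grey lines the 95% counting intervals of that ratio, and dotted lines 1.2-fold. Eif2ak3 is the one filled point beyond a dotted line, and most grey lines cross 0.

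Genes around the initiation factors were counted on the same scale from 6 lists. Among 15 partners of the initiation complex, such as the poly(A)-binding protein Pabpc1 and the eIF4A inhibitor Pdcd4, none passed 1.2-fold in either direction, and 11 were below 0 with a median of -0.040. Among the 11 elongation, termination and hypusine genes with at least 1 TPM none passed it either, with a median of -0.0054. The mitochondrial factors Mtif2 and Mtif3 had changes of -0.040 and 0.091. In lists of this size, counts of none are near the background of 5.39% higher and 5.51% lower.

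In the list of mTORC1 and MNK signalling to eIF4E 1 of 16 genes was higher past 1.2-fold and 1 was lower. These counts are near the background of 5.39% higher and 5.51% lower, and the list median was 0.0054. Ddit4, an inhibitor of mTORC1 also called REDD1, had 21.9 TPM in KO against 12.1 TPM in WT, a change of 0.80 with an interval of the ratio of 0.67 to 1.08. Mknk2, a kinase that phosphorylates eIF4E, had 63.6 TPM in KO against 82.5 TPM in WT, a change of -0.37 with an interval of -0.43 to -0.29. Its relative Mknk1 had 8.07 TPM in KO against 6.62 TPM in WT, a change of 0.25 that did not reach 1.2-fold on this scale. It passed 1.2-fold at 0.28 with 0.1 TPM added and at 0.29 in the authors' means, where the interval of the ratio was 0.052 to 0.54, so that 2 of 16 genes were then higher. Mknk1 and Mknk2 thus lay on opposite sides of 0.

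Of 6 regulators of eIF2 alpha phosphorylation 1 was lower past 1.2-fold, against 5.51% of all genes. Nck1, an adaptor that keeps eIF2 alpha dephosphorylated, had 20.1 TPM in KO against 24.4 TPM in WT, a change of -0.27 with an interval of -0.44 to -0.088. Centred on the median of all genes, it was at -0.25 and no longer past 1.2-fold. The phosphatase subunit genes Ppp1r15a and Ppp1r15b had changes of 0.021 and 0.0086. Among 7 genes of the ATF4 list with at least 1 TPM, 2 were lower past 1.2-fold and none higher, with a median of -0.19. The shares of all genes were 5.51% lower and 5.39% higher, and lists of 6 and 7 genes are too short to compare with them. Ddit3, the stress transcription factor CHOP, had 4.91 TPM in KO against 9.60 TPM in WT, a change of -0.84 with an interval of -1.51 to -0.49 from 46 reads in KO. Chac1, which degrades glutathione, had 3.35 TPM in KO against 4.25 TPM in WT, a change of -0.27 that fell short of 1.2-fold when centred, and its interval of -0.80 to 0.12 included 0. Atf4 itself, whose mRNA is translated when eIF2 alpha is phosphorylated, changed by -0.041. Atf5 and Asns lay on the other side, with changes of 0.22 and 0.18.

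**Figure D5:**
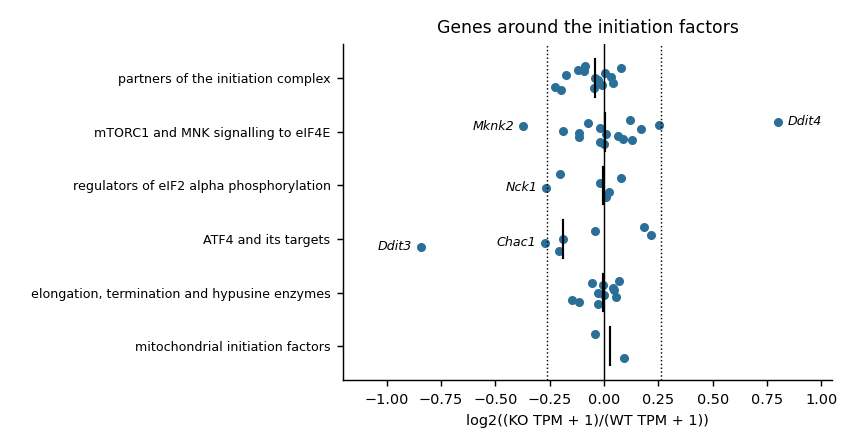
Changes of the genes of the 6 lists that averaged 1 TPM or more, on the log2 scale of TPM with 1 added, 1 point per gene. Black bars are list medians and dotted lines 1.2-fold. Ddit4 stands to the right, and Ddit3, Mknk2, Chac1 and Nck1 to the left, of the dotted lines.

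The libraries carried the markers of liver, with hepatocyte markers such as Alb and Apoa1 summing to 76881 TPM in KO against 79434 TPM in WT. Kupffer cell markers were above 0 in 6 of 6 genes, with sums of 191 TPM in KO against 170 TPM in WT. Endothelial markers were below 0 in 6 of 6, with sums of 136 TPM in KO against 151 TPM in WT. Stellate cell markers summed to 198 TPM and 219 TPM, cholangiocyte markers to 62.0 TPM and 66.9 TPM, lymphocyte markers to 6.39 TPM and 7.01 TPM, and red cell markers to 1412 TPM and 1429 TPM in KO and WT. The stellate markers went in both directions, 4 below 0 and 2 above. Lrat and Pdgfrb were the higher ones, with changes of 0.17 and 0.043. Dcn was the largest part of the stellate sum, at 119.5 TPM in KO against 137 TPM in WT. Most of the cholangiocyte sum was Spp1, at 57.8 TPM in KO against 61.4 TPM in WT. No listed marker was at 0 TPM, but the lymphocyte marker Nkg7 had 0 estimated reads in KO and 12 in WT.

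Some markers differed in size or direction from the rest of their lists, and these were named after their values were seen. Hbb-bs, an adult beta globin, had 41.3 TPM in KO against 77.1 TPM in WT, a change of -0.89, and Hbb-bt had a change of -0.27 in TPM but 0.044 in the authors' means. Hba-a1, an alpha globin, had a change of 0.19. In the authors' means Hbb-bs was at -0.85 and Hba-a1 at 0.14. Whether reads shared among globin copies have a part in these values was not tested. The endothelial marker Lyve1 changed by -0.60, and the cholangiocyte marker Epcam by -0.59 at 0.67 TPM in KO against 1.51 TPM in WT. Initiation factors are made in all cells, and whether a change in the makeup of the tissue has a part in their small differences was not tested. In bulk tissue fewer cells of a type and less RNA per cell cannot be told apart.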

How the data were processed

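Per the labels, total RNA of snap-frozen livers was pooled by genotype and made into TruSeq Stranded Total RNA libraries, and the submitters' processing notes name CASAVA 1.8.2, RSEM 1.2.09, Bowtie and mm10. The deposited TPM are posterior means that the authors computed with RSEM for 24054 genes. The second table holds the authors' normalized signal for 16318 genes, estimated reads divided by a size factor; why it lists fewer was not given in the sources used here. Its columns are named by condition number and were matched to KO and WT by the order of the genotypes in the study's own heading. Its posterior probabilities and fold changes were not used.

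The values of 52 of the 53 genes were in both tables. The value of 1 read, 1.16 in KO and 0.860 in WT, was taken as the most frequent value of the column, and reads were rounded to whole numbers. Reads of all genes did not come out whole, so the counting intervals rest on rounded values. Intervals were counted by whether they left out 0, which is no test of the genotypes. No p-value was computed, since neither genotype had a second library. The text names Eif3j1, Eif3j2 and their sum, members past 1.2-fold, the highest and lowest change of each role group, the 5 most abundant members, members that differ between tables by over 0.2, and members under 1 TPM; from the pathway lists it names genes past 1.2-fold. Other genes were named after their values were seen. Members and lists were chosen with earlier results of these data known. Shared windows of 100 bases were counted in GENCODE M21 transcripts. Genes were matched to the deposited table by symbol, so a renamed gene would count as not listed. Alternatives were another pseudocount, other filters, centring, rescaling, the second table, the copies kept apart and another fold. Python 3.11.15, numpy 2.4.6, pandas 2.3.3, scipy 1.17.1, biopython 1.88 and matplotlib 3.10.9 were used, and the scripts were tested on simulated data.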

Additional observations from a re-analysis of the deposited data

How the results depend on the processing

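The median change of the members kept its direction under all 8 alternatives, between -0.066 and -0.049 on the log2 scale. The 10 role group medians kept their sign in all 78 alternative values, but that of eIF2B moved from -0.079 to -0.0345 with a mean of at least 10 TPM. Of 196 alternative values of 49 members, 5 had the other sign, those of Eif1, Eif3e and Eif4b, whose changes were at most 0.016 in size. The values of Ddit4, Mknk1, Mknk2, Nck1, Ddit3 and Chac1 kept their sign. Alternatives for the lists and for genes outside the naming rule were chosen after seeing the data. With 0.1 TPM added, in the authors' means or centred on the median gene, 2 genes of mTORC1 and MNK signalling were higher by 1.2-fold, and centring left 0 eIF2 alpha regulators and 1 ATF4 list gene lower by 1.2-fold. The count of members lower by 1.2-fold was 0 with a mean of at least 10 TPM, 0 without the kinases, repressors and Eif1ad, 0 at 1.3-fold and 2 with the copies kept apart, which also gave 1 higher by 1.2-fold and 1 lower by 1.4-fold. The log2 ratio of the summed TPM was -0.047 and became -0.034 when centred on the median gene. In place of the summed Eif3j copies at -0.14, Eif3j1 alone gave 0.43 and Eif3j2 alone -0.68 in TPM, and in the authors' means, an alternative chosen after seeing the data, Eif3j1 alone gave -8.80 and Eif3j2 alone 0.34. The value of -8.80 depends on the 1 unit added and is no bound. No scaling moved the median of all genes by over 0.1. No paired analysis was possible because KO and WT were sequenced as 1 pooled library each, and for the same reason no library could be left out.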
